A study of Mus musculus with 4 samples.

Results

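Adenoma cells of the mouse small intestine that carried transcripts of the cell division genes Mki67, Top2a and Cdk1 were compared with adenoma cells that carried none. Among 10152 cells of 4 single-cell RNA sequencing libraries, 3415 were adenoma cells, defined as cells with at least 2 of Prox1, Notum and Nkd1 detected and at least 3 UMIs (unique molecular identifiers, each standing for a captured transcript) of these genes in sum. Prox1, Notum and Nkd1 are targets of the Wnt pathway. An adenoma cell was called cycling when Mki67, Top2a and Cdk1 summed to 3 or more UMIs, which held for 1809 cells. It was called non-cycling when the sum was 0, which held for 820 cells, and the 786 cells with 1 or 2 UMIs lay between. The cells were thus chosen by their values of 6 genes, which were left out of all tests.

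The study compared adenomas of ApcMin mice with those of VApcMinL mice to learn what loss of the transcription factor Lef1 does to Apc-mutant tumors. ApcMin libraries came from ApcMin/+;Lef1 +/+ mice and VApcMinL libraries from ApcMin/+;Lef1 fl/fl mice with Villin-Cre, which drives recombination throughout the intestinal epithelium. All mice were 11 weeks old, of the strain C57BL/6 and labelled male, and each library pooled between 3 and 10 dissociated tumors without sorting. The replicate number also marks the chemistry of the 10x Genomics droplet kit, which counts transcripts at their 3′ end: kit 2 for both libraries numbered 1, and kit 3 for those numbered 2. Values per library are given throughout in the order ApcMin replicate 1, VApcMinL replicate 1, ApcMin replicate 2, VApcMinL replicate 2. In this order there were 243, 206, 185 and 1175 cycling cells and 111, 221, 102 and 386 non-cycling cells, and VApcMinL replicate 2 held the most cells of each state.

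Libraries are named by their labels. Lef1 stood at 7.59, 23.4, 28.4 and 20.1 CPM (the usual unit of a gene's share of all UMIs, with library sizes adjusted by TMM as for all tested genes) in cycling cells, which goes against the labels in the kit 2 pair, although 3′ counts can include transcripts from a deleted allele. Library totals ran from 44660305 to 128247396 UMIs. The mitochondrial limit removed 2490 of 4386 barcodes over the UMI floor in ApcMin replicate 2, against 170 of 2262 to 619 of 4578 in the others. The ApcMin replicate 1 and VApcMinL replicate 1 libraries shared 8 cell barcodes, and 1 barcode was shared by ApcMin replicate 1 and VApcMinL replicate 2. Nothing in the labels ties a library to single animals, so p values measure the spread between these libraries.

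A dividing cell copies its genome in S phase and separates the copies in mitosis. The genes for both steps are switched on in waves. E2F transcription factors open the replication genes in late G1, and the DREAM and MYBL2 complexes act through the CHR element of the genes for mitosis. The promoters of these genes often hold CCAAT boxes besides. Cyclins with their kinases drive each step, and CDK inhibitors hold it back. In the healthy intestine, division is confined to the crypts, where Wnt signals keep stem and progenitor cells cycling. Loss of Apc leaves the Wnt pathway on.

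The elements can be seen in the promoters of genes that rose in cycling cells. The 4 windows, from RefSeq on GRCm38.p6, run from 250 bases before to 50 bases after the gene's start, 5′ to 3′ on the gene's strand. Each window was picked because it holds the element named, to show what was counted: Aspm and Ckap2l are among the largest rises, whereas Hells (log2 2.87) and Mcm5 (2.84) are not. Capitals mark matches on either strand to the CHR (TTTGAA), the CCAAT box (CCAAT) and the E2F motif (TTTCCCGC or TTTGGCGC). The spindle genes Aspm (chr1:139454523-139454822, plus strand) and Ckap2l (chr2:129297163-129297462, minus strand) each hold 3 CCAAT boxes, with 1 CHR in Aspm and 2 in Ckap2l. The replication genes Hells (chr19:38930740-38931039, plus strand) and Mcm5 (chr8:75109259-75109558, plus strand) each hold 1 E2F motif, and Mcm5 holds 3 CCAAT boxes besides.
Aspm: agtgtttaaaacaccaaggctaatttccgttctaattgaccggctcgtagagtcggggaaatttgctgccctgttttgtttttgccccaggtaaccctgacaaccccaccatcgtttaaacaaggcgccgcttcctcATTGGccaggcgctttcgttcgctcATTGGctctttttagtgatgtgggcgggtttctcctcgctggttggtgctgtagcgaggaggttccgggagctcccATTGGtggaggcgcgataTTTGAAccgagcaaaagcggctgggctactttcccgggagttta
Ckap2l: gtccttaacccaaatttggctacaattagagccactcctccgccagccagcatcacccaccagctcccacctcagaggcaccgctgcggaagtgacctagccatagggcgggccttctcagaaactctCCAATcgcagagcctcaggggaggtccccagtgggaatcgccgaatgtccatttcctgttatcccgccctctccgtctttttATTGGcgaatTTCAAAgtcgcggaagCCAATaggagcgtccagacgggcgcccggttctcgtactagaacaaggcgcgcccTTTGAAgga
Hells: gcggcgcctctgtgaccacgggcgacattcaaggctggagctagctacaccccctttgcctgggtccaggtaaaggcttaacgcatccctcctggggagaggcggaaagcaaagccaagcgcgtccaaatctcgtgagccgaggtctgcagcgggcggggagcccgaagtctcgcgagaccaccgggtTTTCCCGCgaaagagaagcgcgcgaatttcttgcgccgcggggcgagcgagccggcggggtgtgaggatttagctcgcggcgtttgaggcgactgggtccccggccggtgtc
Mcm5: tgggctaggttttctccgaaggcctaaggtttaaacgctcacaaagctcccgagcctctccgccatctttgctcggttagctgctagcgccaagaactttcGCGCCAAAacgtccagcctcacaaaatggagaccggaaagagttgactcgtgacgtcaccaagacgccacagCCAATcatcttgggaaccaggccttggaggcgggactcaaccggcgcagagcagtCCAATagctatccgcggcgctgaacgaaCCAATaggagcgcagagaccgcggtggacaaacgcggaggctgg

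Across the gene lists, the CHR was found in 27 of 43 windows of spindle and kinetochore genes (62.8%) and in 7 of 19 windows of cyclins and kinases (36.8%). It was found in 13.3% of 45 windows of replication genes and in 8.51% of 47 windows of ribosome biogenesis genes. For reference, 11.9% of the 11638 windows of all tested genes and 17.9% of 32851 windows overall held it. The E2F motif was most frequent in the replication list, in 15 of 45 windows (33.3%). It was in 10.5% of cyclin, 6.98% of spindle and 6.38% of ribosome biogenesis windows, against 2.90% of the windows of tested genes. CCAAT boxes were frequent in all 3 groups, at 69.8% of spindle, 78.9% of cyclin and 60% of replication windows, against 37.7% of the windows of tested genes. These are matches of letters, and a window without a match says only that these letters are not in it.

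**Figure D1:**
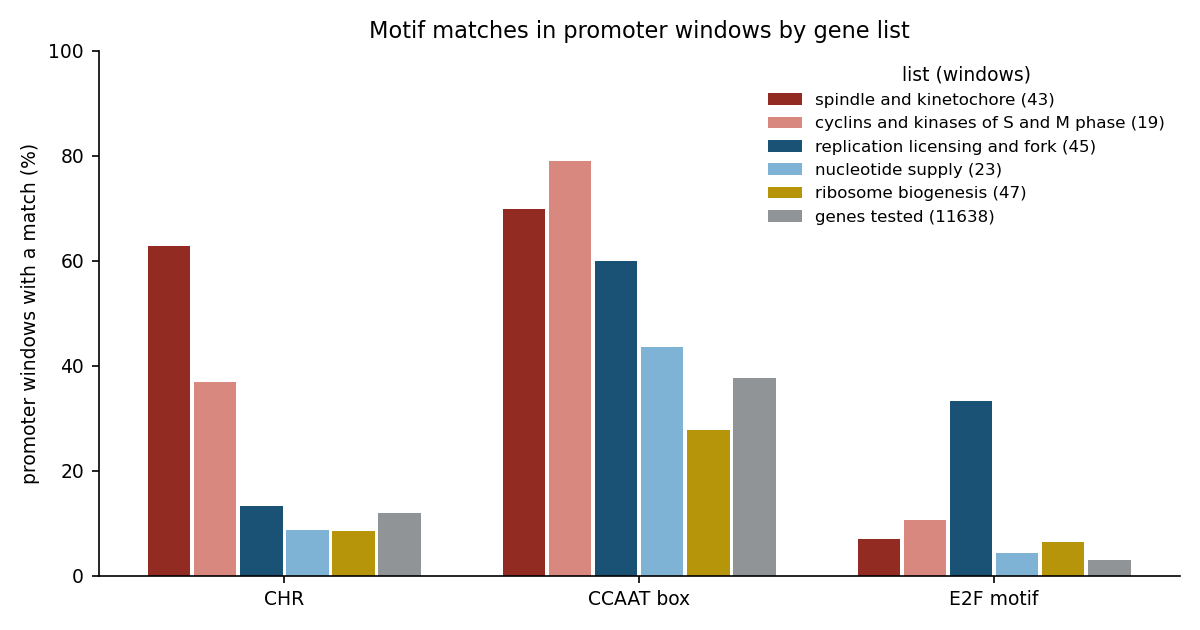
Share of promoter windows (y axis, percent) with at least 1 match on either strand to each of 3 motifs, for 5 gene lists and all tested genes (bars; number of windows in brackets). The CHR bar is tallest for spindle and kinetochore genes (62.8%) and the E2F bar for replication genes (33.3%).

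The label of the cells was checked against genes that the rule had not used. UMIs were summed per library and state, and the states were compared within library. Of 11909 genes tested, 2331 (19.6%) were higher and 2295 (19.3%) lower in cycling cells at an adjusted p under 0.05 with edgeR's quasi-likelihood test, or 38.8% in all, with a median log2 difference of -0.05 over all genes. Of these, 2282 of the higher and 2083 of the lower genes had the same direction in all 4 libraries. Of 266 tested genes in the lists of the cell cycle, 237 rose and 4 fell. Genes transcribed together with Mki67, Top2a and Cdk1 had to differ by the way the cells were chosen, so their calls describe the cells and are not read as a finding.

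Cycling cells also held more UMIs than non-cycling cells, with medians of 28696 against 16431, 27233 against 13500, 48041 against 21400, and 34104 against 18323. A rule on a sum of UMIs favors deep cells in the cycling state, so size and rule cannot be told apart here. The comparison was therefore repeated on equal numbers of cells matched on UMIs, from 64 to 294 cells per state and library, which left 1348 genes higher and 1073 lower of 9935 tested. Values in matched cells are given for the main lists and genes. At 4000 UMIs per cell, cycling cells held slightly more genes in 4 of 4 libraries, with a mean of library medians of 1703 ± 74.5 (SD, n = 4) against 1667 ± 76.2, a difference of 35.4 ± 23.4 (exact paired permutation test, p = 0.125, the smallest that 4 pairs allow).

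The 3 genes of the rule set the states by design, and their levels, like the summed levels of gene lists, are plain CPM. Mki67, a coat protein of mitotic chromosomes, stood at 119, 107, 252 and 269 CPM in cycling cells. Top2a, which untangles replicated DNA, stood at 391, 335, 380 and 463 CPM, and Cdk1, the kinase that drives mitosis, at 144, 175, 146 and 156 CPM. Epcam, a marker of epithelial cells, had similar levels in both states, from 1677 to 2369 CPM in cycling and from 1525 to 2339 CPM in non-cycling cells.

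Over all libraries, the threshold cut through a continuous distribution. With each cell thinned to 4000 UMIs, genes of the replication list summed to 4.10 UMIs per cell in the 300 cells just below it (2 UMIs of the rule) and 5.19 in the 176 cells just above it (3 UMIs). Spindle and kinetochore genes summed to 2.06 and 3.102 UMIs in the same cells. In ApcMin replicate 2, spindle genes hardly differed, at 2.15, 2.15 and 2.22 UMIs with 2, 3 and 4 to 5 UMIs of the rule. Replication genes stood at 3.56, 4 and 2.94 UMIs there, in 34, 13 and 18 cells. In the remaining libraries both sums rose from 2 to 3 UMIs of the rule. From the non-cycling cells to the 895 cells with 21 or more UMIs, replication genes rose from 2.68 to 11.9 UMIs and spindle genes from 0.871 to 15.7 UMIs. At 11 to 20 UMIs of the rule, replication genes stood at 11.7 and spindle genes at 7.81 UMIs. VApcMinL replicate 2 held most of the cells in the highest class. From 11 to 20 UMIs to the highest class, replication genes went from 10 to 9.13, from 12.3 to 9.42, from 8.97 to 13.6 and from 12.5 to 12.4 UMIs in the 4 libraries, so their course there was not the same, while spindle genes were higher in the highest class in each library. Replication-dependent histones stayed between 3.58 and 4.15 UMIs up to 10 UMIs of the rule and reached 9.18 in the highest class. These values are a description, since the classes were cut from the same cells.

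**Figure D2:**
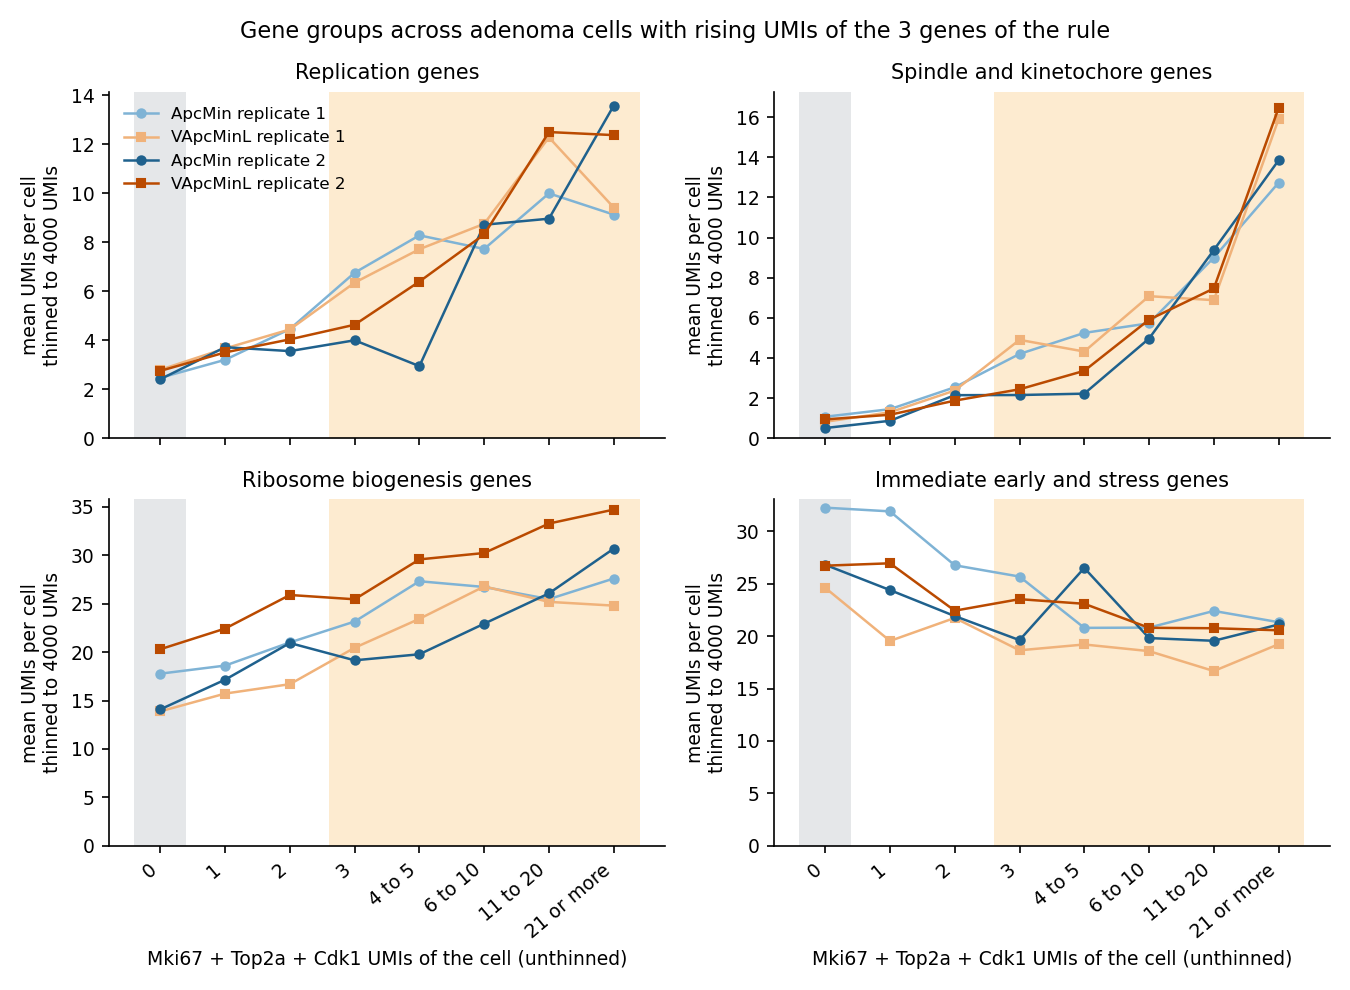
Mean UMIs per cell of 4 gene lists, each cell thinned to 4000 UMIs (y axes), in classes of adenoma cells by their unthinned Mki67 + Top2a + Cdk1 UMIs (x axes); lines are libraries, the grey band marks non-cycling and the orange band cycling cells. Over all libraries, replication genes are at 11.7 and 11.9 and spindle genes at 7.81 and 15.7 UMIs in the 2 highest classes, and immediate early and stress genes go from 26.9 in the non-cycling to 20.6 UMIs in the highest class; the libraries differ in the course of the replication genes.

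Cycling cells varied in both sums. Per cell and at 4000 UMIs, the 5th, 50th and 95th percentiles of spindle UMIs were 1, 8 and 22 in ApcMin replicate 1 and 0, 9 and 29 in VApcMinL replicate 2. Between 4.53% and 9.19% of cycling cells had no spindle UMI at that depth, and between 0.971% and 4.86% had no replication UMI. The rank correlation of both sums across cells was -0.09, 0.06, 0.27 and 0.21 in the libraries with 243, 206, 185 and 1175 cells. Cells of a library share their dissociation, and sampling at this depth alone spreads such sums, so these values are a description from which no separate groups of cells are read.

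The largest rises in the cell cycle lists belonged to genes of the mitotic spindle, kinetochore and chromosomes. Aspm, which organizes spindle poles, had 26.9, 22.5, 28.4 and 34.9 CPM in cycling and 0.578, 0, 0 and 0.38 CPM in non-cycling cells. The latter rest on 4 UMIs in all, so the size of its difference (log2 6.83, SE 0.29, edgeR adjusted p = 2.39e-07) depends on few counts. The other large rises were Ckap2l (log2 6.30), Ndc80 (6.25), Nuf2 (6.20), Casc5 (5.69), Nusap1 (5.64), Tpx2 (5.37), Dlgap5 (5.34), Hist1h1b (5.12) and Aurkb (5.08). Ndc80 and Nuf2 are subunits of the complex that ties kinetochores to microtubules, and Aurkb is the kinase that corrects faulty attachments.

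Every tested member of the spindle and kinetochore list rose (49 of 49, median log2 difference 4.13), and so did the 25 cyclins and kinases of S and M phase (3.80). Among the abundant members, Birc5, a subunit of the Aurora B complex, had 282, 260, 165 and 206 CPM in cycling and 43.4, 15.7, 9.43 and 15.7 CPM in non-cycling cells (log2 3.60, SE 0.19, adjusted p = 6.69e-07). Ube2c, which feeds the anaphase-promoting complex, differed by log2 4.07 (SE 0.13), with 366, 342, 227 and 327 CPM against 28.9, 14.2, 11.6 and 22.2 CPM. In the list of anaphase and mitotic exit 11 of 12 genes rose (median 2.5).

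Replication genes rose by less per gene. Of 47 tested, 46 rose (median log2 difference 2.17). Pcna, the sliding clamp of DNA polymerases, had 154, 154, 90 and 82.8 CPM in cycling and 39.9, 46.7, 18.9 and 25.1 CPM in non-cycling cells (log2 1.87, SE 0.09, adjusted p = 4.6e-07). Gmnn, which blocks a second round of licensing, rose from 17.8 to 23.2 CPM to between 101 and 111 CPM (log2 2.34, SE 0.09). Both genes had no overlap between the states. All 23 genes of nucleotide supply rose (median 1.16), 20 of 21 DNA repair genes rose (2.57) and 26 of 27 genes of chromosome structure rose (1.42).

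Histones gave a mixed picture. The linker histone gene Hist1h1b had 55.9, 49.7, 330 and 318 CPM in cycling and 2.31, 1.21, 6.17 and 10.8 CPM in non-cycling cells, so its level differed between the kits but its separation did not. Of 43 replication-dependent histone genes tested, 24 rose (55.8%) and 4 fell (9.30%), against 19.6% and 19.3% of all genes. In matched cells, 13 of 22 rose. Hist1h2bc and Hist1h1c, which are among those that fell, differed by log2 -0.65 (SE 0.09) and -0.67 (SE 0.13). Histone genes are near-identical copies whose reads can be split by the counting, and most of their transcripts lack the poly(A) tail that the kit captures.

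The regulators of the program rose with it. E2f1, an activator of S phase genes, had 25.2, 24.8, 18.3 and 17.5 CPM in cycling and 4.05, 5.13, 2.9 and 3.68 CPM in non-cycling cells (log2 2.38, SE 0.15, adjusted p = 2.41e-06). The atypical repressors E2f7 and E2f8, which are themselves E2F targets, differed by 4.58 (SE 0.36) and 4.50 (SE 0.37). Mybl2 and Foxm1, which drive the genes of mitosis, differed by 4.08 (SE 0.20) and 3.86 (SE 0.25). In this list 13 of 19 genes rose and none fell. Rb1 and Rbl1, both of the retinoblastoma family, rose by 0.45 (SE 0.13) and 1.54 (SE 0.25), whereas their relative Rbl2 was at log2 -0.49 (SE 0.18, adjusted p = 0.0528).

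**Figure D3:**
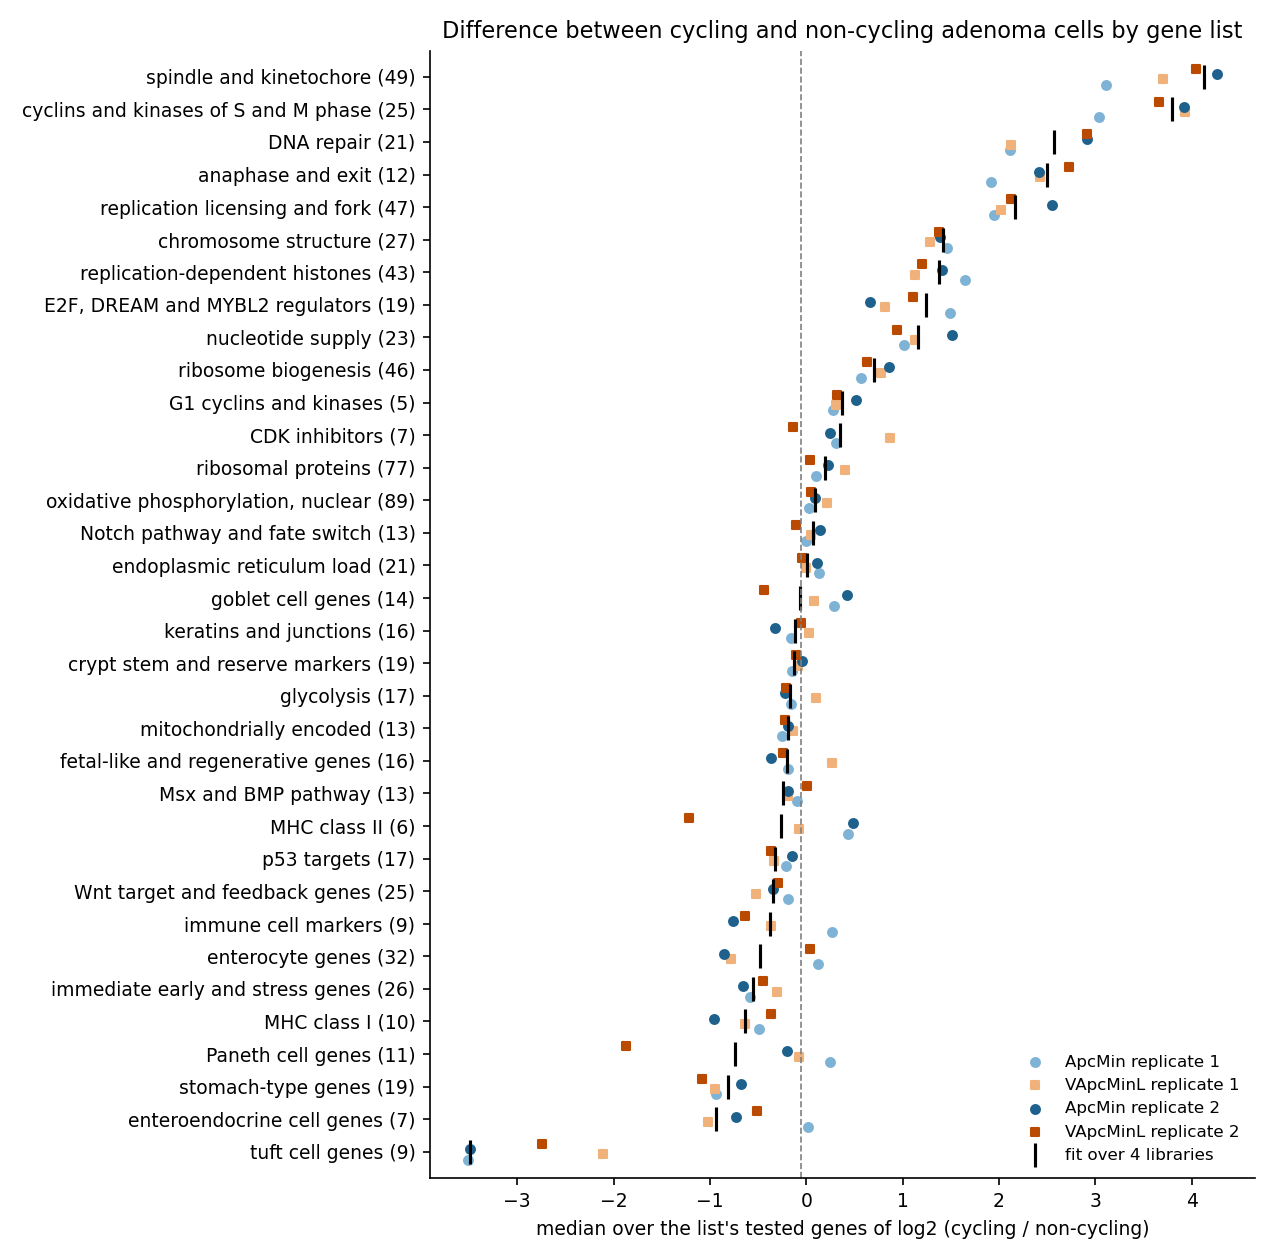
Median log2 difference between cycling and non-cycling adenoma cells (x axis) over the tested genes of each list (y axis, number of tested genes in brackets), by library (points) and in the fit over all 4 libraries (bars); the dashed line is the median of all 11909 genes (-0.05). Lists of the cell cycle lie to the right in all 4 libraries, with a fitted median of up to 4.13 for spindle genes, and tuft cell genes lie farthest to the left (-3.49).

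Among the 10 largest rises outside the lists, several belong to genes of the same processes. Esco2, which locks sister chromatids together, had 49.1, 43.5, 62.6 and 60 CPM in cycling and 2.31, 0.302, 0 and 0.761 CPM in non-cycling cells (log2 6.28, SE 0.29). It was followed by Depdc1a (5.28), Cep55 (5.02), Shcbp1 (4.64), Fam111a (4.52), Cdca2 (4.48), Asf1b (4.42), 2810417H13Rik (4.36), Cdca5 (4.28) and Sapcd2 (4.17). Cep55 acts in the final cut between daughter cells, Asf1b hands histones to new DNA, and Cdca5 protects sister chromatid cohesion. The most abundant was 2810417H13Rik, which encodes a partner of Pcna, with 402, 362, 229 and 252 CPM against 34.1, 16, 5.08 and 12 CPM.

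The entry point to the cycle differed far less. D-type cyclins with Cdk4 and Cdk6 carry cells through G1. Ccnd1, a Wnt-responsive cyclin, had 157, 169, 217 and 188 CPM in cycling and 138, 137, 151 and 138 CPM in non-cycling cells (log2 0.37, SE 0.07, adjusted p = 0.00334), and in cells matched on UMIs the difference was 0.07 (adjusted p = 0.727). Ccnd2 was lower in cycling cells in all 4 libraries, with 319, 229, 186 and 319 CPM against 426, 240, 218 and 391 CPM (log2 -0.25, SE 0.07, adjusted p = 0.0211). Its difference in matched cells was -0.35 (adjusted p = 0.00634), but the call was lost without ApcMin replicate 1 (-0.19, adjusted p = 0.0839), without ApcMin replicate 2 (-0.26, adjusted p = 0.0515) and without VApcMinL replicate 2 (-0.24, adjusted p = 0.0762). Ccnd3 and Cdk4 rose by 0.58 (SE 0.09) and 0.50 (SE 0.07), and Cdk6 was at -0.19 (SE 0.12, adjusted p = 0.227). Their transcripts were abundant in cells without a UMI of the rule genes.

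Of 7 CDK inhibitors, 3 rose (42.9%) and 2 fell (28.6%), against 19.6% and 19.3% of all genes. Cdkn1c (p57), which keeps stem cells of several tissues quiescent, was lower in cycling cells, with 44.1, 85.5, 112 and 63.5 CPM against 84.5, 358, 232 and 101 CPM (log2 -1.18, SE 0.19, adjusted p = 0.000957). The fall was largest in VApcMinL replicate 1, at -2.06, and smallest in VApcMinL replicate 2, at -0.67. Cdkn1a (p21), the main effector of p53 arrest, had 160, 104, 81.2 and 132 CPM against 288, 145, 131 and 175 CPM (log2 -0.60, SE 0.08, adjusted p = 0.000412). By contrast, Cdkn2c (p18) and Cdkn2d (p19) rose by 2.45 (SE 0.19) and 1.65 (SE 0.19), and Cdkn1b (p27) by 0.35 (SE 0.11). Cdkn2a and Cdkn2b stood at 0.66 (SE 0.44, adjusted p = 0.265) and -0.31 (SE 0.19, adjusted p = 0.212). All 5 called genes kept their call in cells matched on UMIs.

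Other targets of p53 included 2 that rose (11.8%) and 6 that fell (35.3%) of 17 tested. Over all genes, 19.6% rose and 19.3% fell. In matched cells 3 of 14 fell, against 1073 of all 9935 genes. Btg2, an antiproliferative gene, had 319, 203, 304 and 329 CPM in cycling and 599, 384, 595 and 615 CPM in non-cycling cells (log2 -0.93, SE 0.06, adjusted p = 3.27e-06), with no overlap between the states. Gadd45a, a growth arrest gene, fell by 0.71 on the log2 scale (SE 0.12). Aen and Rps27l rose by 0.59 (SE 0.10) and 0.35 (SE 0.07), the latter not called in matched cells (0.15, adjusted p = 0.129).

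**Figure D4:**
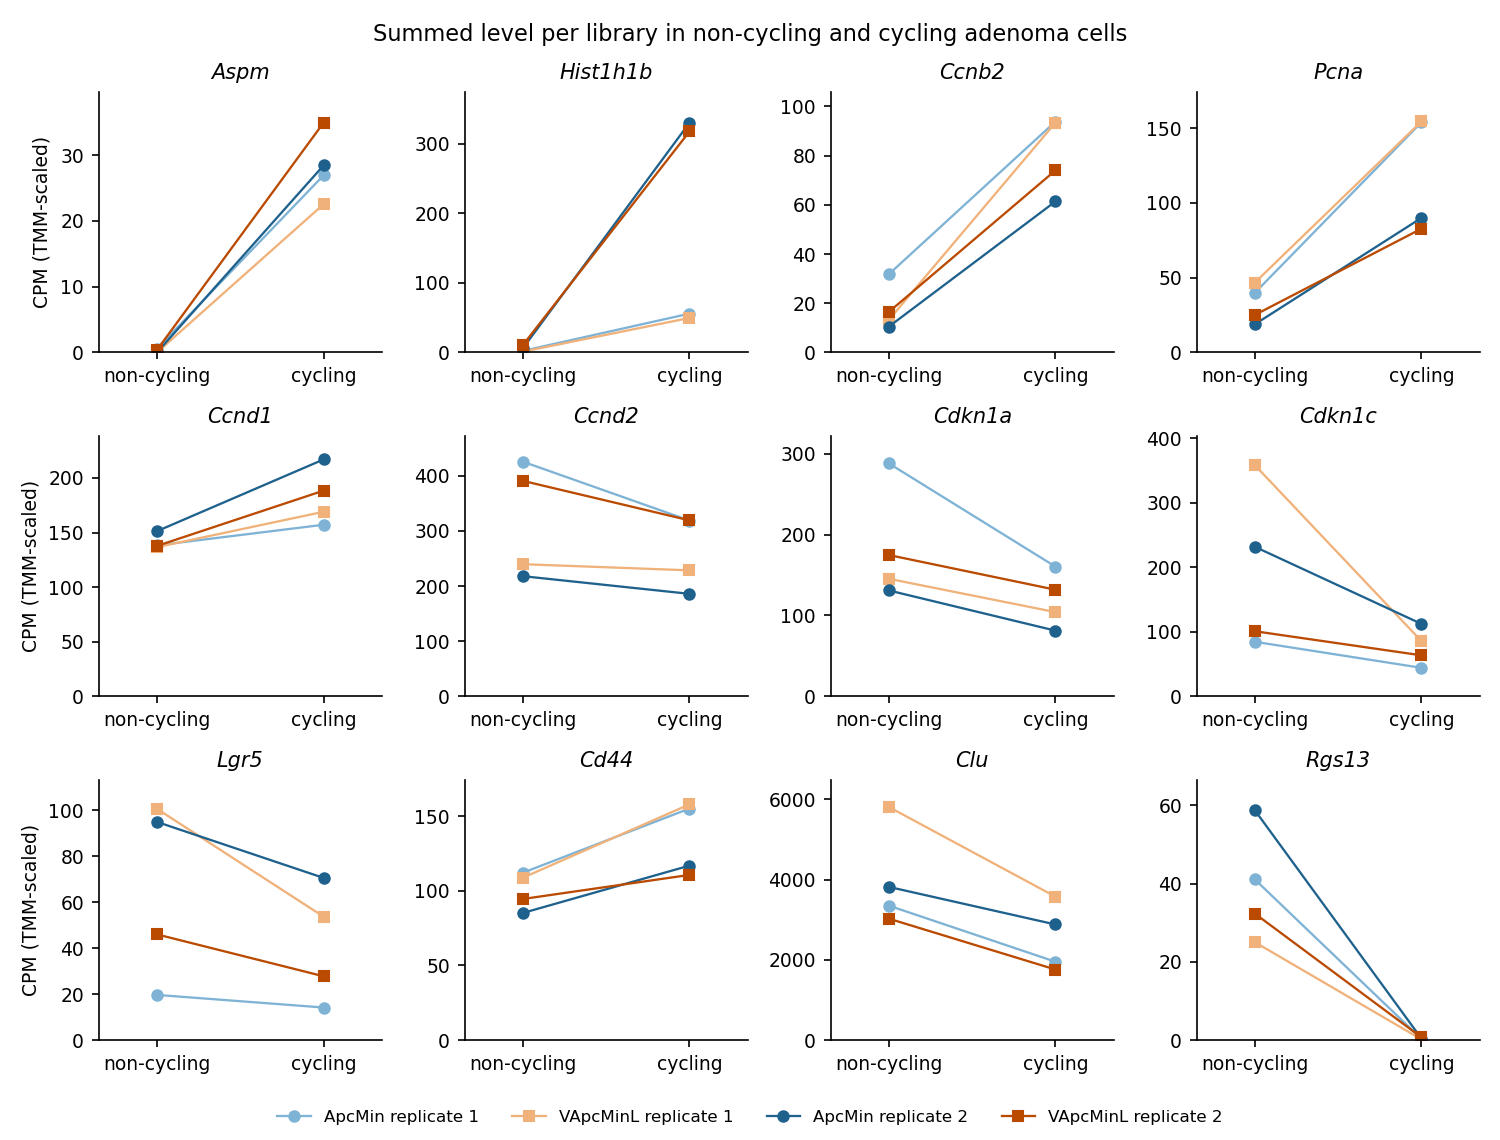
Level of 12 genes (y axes, TMM-scaled CPM, starting at 0) in the sum of non-cycling and of cycling adenoma cells; each line joins both states of a library. Aspm, Hist1h1b, Ccnb2 and Pcna separate the states, Ccnd1 and Cd44 are slightly higher and Ccnd2, Cdkn1a, Cdkn1c, Lgr5 and Clu lower in cycling cells, and Rgs13 is under 1 CPM in all cycling sums.

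Wnt target and feedback genes were on balance lower in cycling cells, and most of these calls were lost in matched cells. Of 25 tested, 3 rose and 13 fell (median -0.34). In cells matched on UMIs, 0 rose and 4 fell of 24 tested (median -0.21). The 4 were Dkk3, Sox9, Sp5 and Wls. With fewer cells, calls over all genes dropped too, from 2295 lower of 11909 to 1073 lower of 9935. Lost calls and like depth cannot be told apart here. The gate asks for a minimum of UMIs of Wnt targets, and the non-cycling cells were shallower. Genes transcribed together with the gate genes may thus be higher in non-cycling cells by the way the cells were chosen. The part of this choice in the falls of the list, of Lef1 and of Lgr5 was not tested. Dkk3, of the Dickkopf family, had 7.59, 45.7, 49.7 and 8.94 CPM in cycling and 24.9, 161, 117 and 31.7 CPM in non-cycling cells (log2 -1.63, SE 0.11, adjusted p = 3.94e-06), and -1.04 (adjusted p = 0.000804) in matched cells. Sox9, a transcription factor of crypt cells, fell by 0.48 (SE 0.07) on the log2 scale. The genes that rose were Myc, which drives growth, at 40.8, 23.2, 31.3 and 42.9 CPM against 30.1, 16.9, 17.8 and 36.8 CPM (log2 0.44, SE 0.11, adjusted p = 0.0111), Cd44 (0.42, SE 0.07) and Cdx1 (0.86, SE 0.15). None of these 3 was called in matched cells, where Myc stood at 0.20 (adjusted p = 0.251).

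Lef1 itself had 7.59, 23.4, 28.4 and 20.1 CPM in cycling and 13.3, 39.2, 44.6 and 21.3 CPM in non-cycling cells. It was lower in cycling cells in 4 of 4 libraries (log2 -0.50, SE 0.13, adjusted p = 0.0154), by between -0.79 and -0.08. In cells matched on UMIs the difference was 0.02 (adjusted p = 0.93). Its fall was thus not seen in cells of like depth. Tcf7l2, the main partner of beta-catenin in the intestine, fell by 0.33 (SE 0.06) and Tcf7 was at -0.26 (SE 0.12, adjusted p = 0.128). The gate genes Prox1, Notum and Nkd1 had higher CPM in non-cycling cells of all libraries, for example 156, 431, 574 and 252 against 91.8, 195, 321 and 147 CPM for Prox1, on the plain CPM scale. These genes chose the cells at a minimum in UMIs and the non-cycling cells were shallower, so the difference is no finding.

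Of 19 tested stem cell markers, 3 rose (15.8%) and 5 fell (26.3%), near the 19.6% and 19.3% of all genes, with 3 falls of 18 in matched cells. Lgr5, the marker of crypt base stem cells, had 14.2, 53.8, 70.6 and 27.8 CPM in cycling and 19.7, 101, 95 and 46 CPM in non-cycling cells (log2 -0.66, SE 0.09, adjusted p = 0.00046), but -0.30 (adjusted p = 0.117) in matched cells. Clu, a marker of reserve and regenerating stem cells, fell from 3351, 5811, 3819 and 3026 CPM to 1953, 3576, 2882 and 1759 CPM (log2 -0.67, SE 0.08, adjusted p = 0.000144). Its call held in matched cells (-0.41, adjusted p = 0.000278). Cd24a and Prom1 fell by 0.56 (SE 0.07) and 0.36 (SE 0.09), whereas Cdca7, Igfbp4 and Olfm4 rose by 1.196 (SE 0.11), 0.31 (SE 0.07) and 1.48 (SE 0.22).

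Genes for making ribosomes were higher in cycling cells, whereas ribosomal proteins hardly differed. Of 46 ribosome biogenesis genes, 42 rose (median 0.70), and 30 of 46 in matched cells. Ncl, the nucleolar protein nucleolin, had 891, 709, 962 and 1327 CPM in cycling and 499.8, 312, 404 and 695 CPM in non-cycling cells (log2 1.05, SE 0.08, adjusted p = 1.03e-05). Npm1, a second nucleolar protein, rose by 0.77 (SE 0.08). Ribosomal protein genes rose in 29 of 77 cases with a median of 0.20, and in 2 of 77 in matched cells, 4 of 77 without ApcMin replicate 2 and 18 of 77 without VApcMinL replicate 2. Nuclear genes of oxidative phosphorylation had 19 rises (21.3%) and 5 falls (5.62%) of 89, against 19.6% and 19.3% of all genes. Their rises were near the share of all genes and numbered 4 in matched cells and 12 without ApcMin replicate 2. Mitochondrially encoded genes had 0 rises and 7 falls of 13 (median -0.19), against 2 falls in matched cells or without ApcMin replicate 1, 3 without ApcMin replicate 2 and 0 without VApcMinL replicate 2, and the median mitochondrial share of cells was lower in the cycling state in 4 of 4 libraries (mean of medians 4.41% ± 1.13 against 5.20% ± 1.14, SD, n = 4; exact paired permutation test, p = 0.125, the smallest possible).

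Immediate early and stress genes were lower in cycling cells. Of 26 tested, 18 fell and 2 rose (median -0.55), and 14 fell of 24 in matched cells. Fos, a transcription factor induced within minutes by many stimuli including dissociation, had 694, 456, 246 and 291 CPM in cycling and 1008, 692, 477 and 488 CPM in non-cycling cells (log2 -0.71, SE 0.08, adjusted p = 0.00011). Jun and Jund fell by 0.56 and 0.48 (SE 0.06 each). The 2 that rose were the chaperones Hsp90aa1 (0.73, SE 0.07) and Hsph1 (0.47, SE 0.09). MHC class I genes fell in 8 of 10 cases (median -0.64; 5 of 10 without ApcMin replicate 2), among them B2m, the light chain of the complex, by 0.61 (SE 0.13). Malat1, a nuclear noncoding RNA named after its values were seen, had 6952, 8221, 8362 and 5883 CPM against 14417, 22936, 23835 and 12870 CPM (log2 -1.29, SE 0.09, adjusted p = 4.77e-06). Its difference in matched cells was -0.70 (adjusted p = 3.24e-05).

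Several lists of other pathways had shares of calls close to those of all genes (19.6% higher and 19.3% lower) or depended on single libraries. In the Notch list, 2 of 13 genes rose (15.4%) and 3 fell (23.1%). Without VApcMinL replicate 2, 0 rose and 1 fell, and 1 fell without ApcMin replicate 1 or ApcMin replicate 2. The ligand Jag2 rose by 0.83 (SE 0.17) and the feedback gene Nrarp by 0.79 (SE 0.22) on the log2 scale, whereas Hes1, a target that keeps progenitors from the secretory fate, was at -0.50 (SE 0.07) and the ligand Dll1 at -1.197 (SE 0.36). In the Msx and BMP list 4 of 13 genes fell, among them Smad7, an inhibitor of the pathway, and Id3, a target (log2 -0.38 and -0.31, SE 0.07 and 0.08), but 1 of 12 in matched cells, and 2 of 13 with DESeq2 or without VApcMinL replicate 2. Of 21 genes of endoplasmic reticulum load 4 were higher and 4 lower (19.0% each), with 1 higher and 3 lower of 20 in matched cells and 2 higher and 5 lower without ApcMin replicate 2. Xbp1 and Dnajb9, of the unfolded protein response, were at -0.60 (SE 0.06) and -0.91 (SE 0.10), and the chaperone Hsp90b1 was at 0.23 (SE 0.06). Glycolysis genes had 1 rise and 5 falls of 17, keratin and junction genes 1 rise and 6 falls of 16, and fetal-like genes 2 rises and 4 falls of 16, with 0 rises and 8 falls of 14 in matched cells. The fall counts of the glycolysis list (3 without ApcMin replicate 2 or VApcMinL replicate 2) and of the keratin list (3 without ApcMin replicate 1 or ApcMin replicate 2) depended on single libraries.

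The largest falls were those of tuft cell genes, and they were lost when few cells were left out. Rgs13, a regulator of G-protein signals in tuft cells, had 0.286, 0.171, 0.383 and 0.694 CPM in cycling and 41.1, 25, 58.8 and 32.3 CPM in non-cycling cells (log2 -6.11, SE 0.24, adjusted p = 1.71e-07). Alox5ap, of leukotriene synthesis, differed by -4.23 (SE 0.23) and Dclk1, a kinase used as a tuft marker, by -2.38 (SE 0.27). All 9 tested tuft genes fell (median -3.49). Cells with at least 2 of Rgs13, Alox5ap and Trpm5 and at least 3 UMIs of them numbered 2, 3, 5 and 9 in the non-cycling state, or 1.80%, 1.36%, 4.90% and 2.33%, and 0, 0, 2 and 6 in the cycling state. Without them, 0 of the 4 tuft genes that could still be tested was called (median -0.04), and Dclk1 stood at -0.04 (adjusted p = 0.932). The markers Rgs13, Alox5ap and Trpm5 were picked after the values were seen, for their low levels in cycling cells. The loss of the falls was thus in part set by this choice.

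The other large falls included digestive and stomach genes. Pnliprp2 and Pnliprp1, pancreatic lipase-related genes, differed by -3.29 (SE 0.31) and -2.42 (SE 0.28), and their levels were set by the library. Pnliprp2 stood at 0.143, 12.5, 38.8 and 1.199 CPM in cycling and 0.578, 299, 257 and 6.59 CPM in non-cycling cells. Pcp4l1 (log2 -3.16, SE 0.22), Ceacam10 (-2.28, SE 0.24) and Muc5ac, the mucin of the stomach surface (-2.25, SE 0.21), had no overlap between the states. Muc5ac stood at 5.59, 6.32, 5.65 and 12.1 CPM against 33.6, 12.4, 39.9 and 57.4 CPM. Dnase1 (-2.58), Atp4a, the gastric proton pump (-2.31), the interferon-induced Ifit1 (-2.02) and Spock2 (-2.01) fell in all 4 libraries with overlapping groups. Of 19 stomach-type genes tested, 9 fell (47.4%) and 1 rose (5.26%), against 19.3% and 19.6% of all genes (median -0.81). Their summed level was lower in cycling cells of each library, at 2280, 8839, 4994 and 1702 CPM against 4178, 18691, 6944 and 3727 CPM, as was that of their abundant member Wfdc18, a secreted protein gene (log2 -0.92, SE 0.07).

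Markers of differentiated and other cell types moved with the states in part. Of 32 enterocyte genes, 13 fell (40.6%) and 2 rose (6.25%), with a median of -0.48, and 19 of 26 fell in matched cells. This count depended on the libraries and the mitochondrial limit: 8 fell without ApcMin replicate 1, 4 without VApcMinL replicate 1, 5 without ApcMin replicate 2, and 2 with at most 10% mitochondrial UMIs. Their sums were 1388, 2083, 3578 and 2248 CPM in cycling and 1660, 4079, 8826 and 1930 CPM in non-cycling cells, so that VApcMinL replicate 2 went the other way. Fabp1, the fatty acid carrier of enterocytes, had 171, 194, 496 and 227 CPM against 244, 740, 2086 and 171 CPM (log2 -1.05, SE 0.36, adjusted p = 0.0415). Paneth cell genes summed to 6385 CPM in non-cycling cells of VApcMinL replicate 2, against 1263 to 1568 CPM in the other non-cycling and 931 to 1715 CPM in the cycling sums. Of the 11 tested, 4 fell (36.4%, against 19.3% of all genes) and none rose (median -0.74). Without VApcMinL replicate 2, 3 rose and 4 fell of 10 and the median was 0.10, and without ApcMin replicate 2, 6 fell of 13. The adenoma cells between the states, with 1 or 2 UMIs of the rule genes, had Paneth sums of 14243, 783, 22148 and 5557 CPM, above both states in the ApcMin libraries. Goblet genes had 2 rises (14.3%) and 1 fall (7.14%) of 14, below the 19.6% and 19.3% of all genes. They had 0 calls in matched cells or without ApcMin replicate 1. Of 7 enteroendocrine genes 3 fell (42.9%, against 19.3% of all genes), and 1 of 3 in matched cells.

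Markers of immune cells summed to 595, 225, 81 and 28.3 CPM in cycling and 582, 741, 85.7 and 47.2 CPM in non-cycling cells. Of 9 tested, 1 was lower (11.1%, against 19.3% of all genes). None of the 26 immune markers was at 0 in every cycling sum, and 1 was in the non-cycling sums. Sums of fibroblast and muscle markers were between 10.1 and 41.8 CPM, and those of endothelial markers between 72.8 and 207.8 CPM. The part of such cells or of free RNA in the falls was not tested beyond the tuft-marker cells. In sums over cells, fewer cells of a type and less RNA per cell cannot be told apart.

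The share of cycling cells among adenoma cells was 52.8% (95% exact interval 48.1 to 57.5) and 37.5% (33.4 to 41.6) in the kit 2 pair, ApcMin replicate 1 and VApcMinL replicate 1. It was 50.4% (45.2 to 55.6) and 57.7% (55.5 to 59.8) in the kit 3 pair, ApcMin replicate 2 and VApcMinL replicate 2. The intervals cover counting error only. The mean was 51.6% ± 1.71 in ApcMin and 47.6% ± 14.3 in VApcMinL libraries (SD, n = 2 each), a difference of -4.06 percentage points (two-sided exact permutation test, p = 1, with 0.3333 the smallest p possible). Within kit 2 the library labelled VApcMinL was 15.4 points lower (-15.4) and within kit 3 it was 7.25 points higher, so the direction was not the same in both kits. The sign within kit 2 rests on labels that Lef1 goes against. The gate genes also ran in opposite directions in the kits: Nkd1 stood at 143 and 470 CPM in cycling cells of the libraries labelled ApcMin and VApcMinL in kit 2, and at 408 and 144 CPM in kit 3. With the labels as given, no difference between genotypes was detectable with these libraries.

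Adenoma cells were compared with Epcam-positive cells outside the gate, in which Epcam was detected and none of Prox1, Notum and Nkd1 was. Cells with some UMIs of these genes that did not pass the gate were in neither group. There, 18.8%, 11.9%, 10.1% and 20% of cells passed the same threshold, fewer than among adenoma cells in 4 of 4 libraries (mean difference 34.4 ± 6.45 points, SD, n = 4; exact paired permutation test, p = 0.125, the smallest that 4 pairs allow). With every cell thinned to 4000 UMIs before both rules, the shares fell to 21.3%, 11.9%, 21.9% and 22.9% among adenoma cells and to 10.2%, 5.99%, 6.22% and 16.1% outside the gate (mean difference 9.87 ± 4.46 points, exact paired permutation test, p = 0.125). The share of cells that passed the threshold thus depended strongly on depth. Thinning also changed the groups, with fewer cells in the gate and more outside it in each library. In VApcMinL replicate 2, adenoma cells went from 2038 to 480 and cells outside the gate from 1180 to 2094. The order of adenoma cells over cells outside the gate held at both depths in each library, but not between the same groups of cells.

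**Figure D5:**
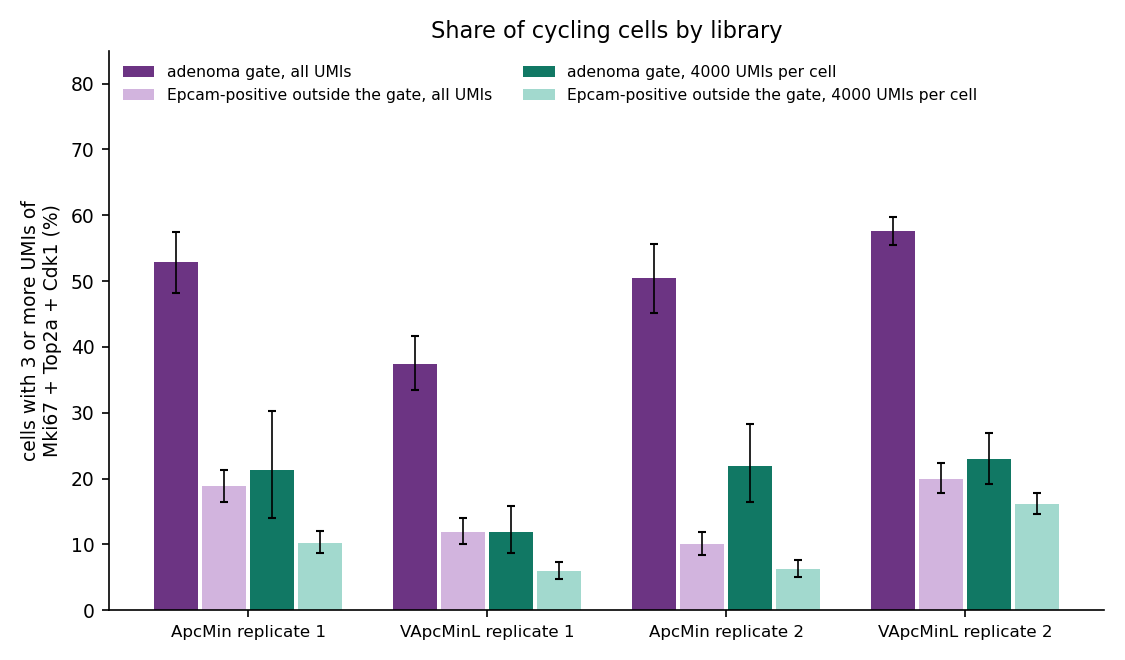
Share of cells with 3 or more Mki67 + Top2a + Cdk1 UMIs (y axis, percent) in each library (x axis), inside the adenoma gate and among Epcam-positive cells outside it, with all UMIs and with cells thinned to 4000 UMIs; error bars are exact 95% binomial intervals. The adenoma bar is the taller in each library at both depths, and thinning lowers it from between 37.5% and 57.7% to between 11.9% and 22.9%.

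Whether the difference between the states depended on genotype was tested with a term for state by genotype, the library as a block. Of 11909 genes, 4 were called (0.0336%), all with a lower cycling to non-cycling ratio in VApcMinL libraries. They were the Paneth cell defensins Defa21 and Defa22, Cd74, the invariant chain of MHC class II, and Reg4, a secreted lectin-like protein of secretory cells. Defa21 had no UMI in VApcMinL replicate 1 and rested on ApcMin replicate 1 and VApcMinL replicate 2. In VApcMinL replicate 2, the non-cycling cells also held the highest sum of Paneth genes among the non-cycling sums. With the kits paired (a replicate block for the state difference), Cd74 and Reg4 kept their call (-1.799, adjusted p = 0.0359, and -3.353, adjusted p = 0.00456), whereas Defa21 and Defa22 lost it (-2.912, adjusted p = 0.647, and -3.645, adjusted p = 0.105). A further test within cycling cells alone, with the kit as a block, called 1 of 12185 genes (0.00821%), Xist, the RNA of the inactive X chromosome of female cells. Xist stood at 0.141, 1104, 0.0945 and 313 CPM in cycling cells (log2 12.33, SE 0.37, adjusted p = 0.0435), although all libraries are labelled male. Sex and genotype cannot be told apart in these libraries. At an unadjusted p under 0.05 the tests gave 396 and 41 genes.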

How the data were processed

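Tumor cells were profiled in 4 droplet libraries. The deposited matrices hold raw UMI counts per gene and barcode, which the authors made with Cell Ranger (2.1.1 in the study's methods and the submitters' notes; the kit 3 headers name a later version) on the mm10 genome, for all barcodes and without selecting cells. The notes also name Seurat 3.1.1, whose output was not used here. Genes were restricted to the 27514 common to both gene tables, which left out 0.209% to 0.577% of UMIs, and barcodes were kept at 4000 or more UMIs, 200 or more genes and at most 20% mitochondrial UMIs. No cells were removed as doublets.

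Counts were summed per library and state into 8 sums and tested with edgeR 4.0.16 (quasi-likelihood test, TMM, a minimum count of 10, library as a block, Benjamini-Hochberg adjustment over all genes kept, called at 0.05) in R 4.3.3. All adjusted p values come from edgeR's quasi-likelihood test, fitted anew for each setting, over 4 libraries unless 1 is said to be left out. The genotype tests had their own designs, and the test within cycling cells had 1 residual degree of freedom. SEs were derived from the F statistic. DESeq2 1.42.0 was an alternative, and shares were tested with exact permutation tests in SciPy 1.17.1. Cells were matched within library in bins of 0.25 on the log2 UMI scale, an alternative chosen after seeing the data, as were leaving out tuft-marker cells and cells with 3 or more Chga and Chgb UMIs. On simulated counts, of 200 genes changed by a log2 of 1 the comparison of the states recovered 179 (of 11714 genes), the genotype term 27 (of 11713) and the test within cycling cells 136 (of 11949). At a log2 of 2 they recovered 196 (of 11692), 174 (of 11703) and 196 (of 11950). The counts were simulated at a dispersion (spread beyond counting error) of 0.02, with no differences between libraries except their totals. Recovery in the real data, where libraries also differ by kit and tumors, was not measured. In the real test within cycling cells, Psca stood at log2 5.39 and was not called.

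The kit pairs libraries of the same number: their deviations from the group means correlated at 0.268 over 11909 genes, and over 2 pairs this value is the same for both by construction. Members and lists were chosen with earlier results of these data known. Named genes were the 10 largest rises inside and the 10 outside the cell cycle lists, the 12 largest falls (all with 1 direction in 4 libraries and at least 20 CPM), members of the G1 cyclin, CDK inhibitor, E2F and Wnt lists, and up to 3 called genes of highest level per direction of each other list. Malat1 and Defa24 fall outside this rule. An item of the tuft cell list is not reported here and was left out of that list and of the rule for tuft-marker cells. A planned comparison with Olfm4-positive cells outside the gate was not run, since only 14 such cells were non-cycling.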

Additional observations from a re-analysis of the deposited data

Results flagged for a closer look

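The difference between cycling and non-cycling cells differed between the libraries labelled ApcMin and VApcMinL for 4 genes, by the test of the state by genotype term (edgeR, adjusted over 11909 genes). Values are log2 differences of VApcMinL minus ApcMin libraries, and CPM follow the library order of the report. Lef1 goes against the labels in the kit 2 pair, and Xist was found in both VApcMinL libraries, so genotype, label and sex cannot be told apart here. With the replicate block, Defa21 and Defa22 lost their call and Cd74 and Reg4 kept it.

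Defa21, a Paneth cell defensin, gave -5.983 (SE 0.41, adjusted p = 0.00121). It stood at 83.5, 0, 1.05 and 49.5 CPM in cycling and 11, 0, 1.45 and 512 CPM in non-cycling cells. Defa22 gave -7.245 (SE 0.61, adjusted p = 0.00135), with 107, 0.171, 1.63 and 37.6 CPM against 11, 0, 2.9 and 918 CPM. Both rest on ApcMin replicate 1 and VApcMinL replicate 2, and without VApcMinL replicate 2 Defa22 stood at 0.378. Defensin genes are near-identical copies, so their counts are uncertain.

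Cd74 gave -1.793 (SE 0.20, adjusted p = 0.0121), with 64.5, 30.6, 35 and 13.5 CPM against 47.4, 96.5, 29.7 and 32.6 CPM. It was higher in cycling cells of both ApcMin libraries and lower in those of both VApcMinL libraries. Reg4 gave -3.313 (SE 0.43, adjusted p = 0.0417), with 35.2, 19.6, 44.3 and 16.8 CPM against 11.6, 54.6, 5.08 and 24 CPM, in the same directions. Its non-cycling sums rest on 20, 181, 14 and 189 UMIs. With 1 library left out, the Reg4 value ranged from -4.035 to -2.529, and it was weakest without ApcMin replicate 2.

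Paneth and immune markers moved with these genes only in part. Non-cycling cells of VApcMinL replicate 2 had the highest non-cycling sum of Paneth genes, at 6385 CPM. Those of VApcMinL replicate 1 had the highest sum of immune markers, at 741 CPM. Reg4 was highest in the latter (54.6 CPM), where Paneth genes summed to 1362 CPM. In ApcMin replicate 2, Reg4 stood at 44.3 CPM in cycling against 5.08 CPM in non-cycling cells, and Paneth genes at 1432 against 1568 CPM. The part of Paneth and immune cells was not tested.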

How the results depend on the processing

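Against 2331 genes higher and 2295 lower in cycling cells, 1348 and 1073 were called in cells matched on UMIs and 439 and 347 in cells thinned to 4000 UMIs before the rule, where fewer cells and genes could be tested (9935 and 4735 genes). Without the replicate block, that is without pairing the states within library, 686 and 216 were called. The other settings gave counts within 1.5 times, from 1774 to 2927 higher and 1546 to 2565 lower. The 3 scalings moved the median of all genes by under 0.1.

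The state by genotype term called 4 genes, against 7 at 10000 or more UMIs, 9 in matched cells, 123 without the low-count filter, 9 with the replicate block (a state by kit term), and 2 each at 10% mitochondrial UMIs, in thinned cells, with cycling set at 6 or more UMIs and without the highest doublet scores. Leaving out 1 library gave 9 to 19. Cd74 turned to 0.513 in thinned cells, and Defa22 ranged from -7.857 to 0.3776 with 1 library left out.

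Within cycling cells, Xist was the 1 gene called; DESeq2 called 5, and 0 were called at 10% mitochondrial UMIs, in matched cells, with library totals, with RLE, without the replicate block and without Chga and Chgb cells. Leaving out 1 library gave 0 to 1, in fits without a kit term. The share difference of -4.06 points was 7.246 within kit 3, and -14.16 to 6.037 with 1 library left out, where leaving out VApcMinL replicate 1 turned its direction.

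Of the named genes, Lef1 (0.02432), Ly6a (-0.3461) and Tff1 (-0.1304) changed sign in matched cells, E2f4 (-0.03619), Il33 (-0.1258), Tff3 (-0.3936) and Defa24 (-1.604) in thinned cells, and Apoa1 (0.1256) at 10% mitochondrial UMIs. The cause was not tested. Among alternatives for single genes and for counts of gene lists, 3986 values kept their call status or, for lists, stayed within 1.5 times. Another 501 lost their call, or all calls of the list, and 30 gained one. List counts that moved by more numbered 110. The planned comparison with Olfm4-positive cells was not run. Low UMI counts limit the size of the largest differences.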
